A study of Mus musculus with 4 samples.

Results

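The 9 genes described here make, carry, break down or sense retinoic acid. They are Aldh1a2, Aldh1a3, Dhrs3, Crabp1, Crabp2, Cyp26b1, Rara, Rarb and Rxra, taken by gene name from both deposited tables, and all 9 were among the 20385 genes that the tables share. The material was cerebral cortex from E16 (embryonic day 16) mice of the C57BL/6 strain, sequenced as 4 bulk RNA libraries. WT 1 and WT 4 are wild type, and KO 5 and KO 6 are labelled as knockouts of Cd93, the gene of a transmembrane lectin-like receptor that the series title links to the birth of astrocytes. The labels give neither the knockout allele nor the embryos behind a library, so p-values measure the spread between these libraries, which may be technical. The design text speaks of triplicates, and 4 libraries were analysed here.

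Retinoic acid is a small lipid hormone made from vitamin A. Retinol is oxidised to retinaldehyde, retinaldehyde dehydrogenases (the ALDH1A enzymes) turn that into retinoic acid, cytoplasmic CRABP proteins carry it, and CYP26 enzymes of the cytochrome P450 family degrade it. Inside the nucleus it binds a receptor of the RAR family, which sits on DNA as a heterodimer with an RXR receptor and recruits corepressors or coactivators. In the fetal forebrain, the meninges are a known site of synthesis through ALDH1A2, and the lateral ganglionic eminence one through ALDH1A3.

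Rarb is the textbook case of a receptor gene that its own ligand controls, through a direct repeat of a 6-base half-site with a gap of 5 bases. RefSeq promoters of build GRCm38.p6, which run from 250 bases before to 50 bases after a start site, were matched by symbol for 7 of the 9 genes (13 promoters). They were searched on both strands for 2 direct copies of a half-site with 1, 2 or 5 bases between them. Each copy could be AGGTCA or its variant AGTTCA. The forms with G first, GGGTCA and likewise GGTTCA, were allowed too. The repeat with a gap of 5 bases was found in 1 of the 13 promoters, a promoter of Rarb, and in 0.0974% of all 32851 promoters. With a gap of 1 or 2 bases it was found in 0 of the 13, against 0.222% and 0.268% of all promoters. Among genes known to respond to retinoic acid, Cyp26a1, the gene of a degrading enzyme, also held the repeat with a gap of 5. Outside that list, the blood marker gene Hbb-y held a repeat with a gap of 5 and Bco1, the gene of a carotene-cleaving enzyme, held a repeat with a gap of 1. The Rarb and Cyp26a1 copies follow, 5′ to 3′ with 6 flanking bases on each side and the half-sites in capitals, because they carry the letters that the receptors are known to read.
Rarb, chr14:16575507-16575535, minus strand: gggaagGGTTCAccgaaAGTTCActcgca
Cyp26a1, chr19:37697770-37697798, minus strand: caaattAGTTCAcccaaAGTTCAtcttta
The Rarb repeat lies 53 to 37 bases before the RefSeq start site. In the GENCODE annotation it falls in an untranslated part of an exon in 2 of the 7 Rarb transcripts. A match of letters is a description of the sequence, and binding was not measured.

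Library totals were alike, from 16318317 to 17586157 counts, and Cd93 followed the genotype labels. It had 680 and 409 counts in the wild-type libraries (WT 1 first) and 111 and 99 in the knockouts (KO 5 first), lower but not absent. The order WT 1, WT 4, KO 5, KO 6 is kept for all lists of 4 values below. Levels are in CPM, counts scaled to a common library total. The 14 markers of cortical progenitors and projection neurons, the labelled tissue, were all detected and summed to 4026, 4880, 5044 and 4553 CPM. WT 1 stood apart in markers of neighbouring tissue: 18 markers of meninges and fibroblasts summed to 716, 192, 148 and 194 CPM, and 25 markers of ganglionic eminence and striatum to 1699, 1094, 881 and 1052 CPM. In dissected bulk tissue, fewer cells of a type and less RNA per cell cannot be told apart.

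WT 1 also stood apart in the retinoic acid genes. It was the highest of the 4 libraries for 8 of the 9 genes and the lowest for the other, Cyp26b1, where 27.9% of all tested genes were highest and 26.0% lowest in WT 1. For 6 of the 9 it exceeded the mean of the other 3 libraries at least 1.5 times, against 8.14% of all tested genes. These counts were made after the values were seen. The summed level of the 9 genes was 104, 59.7, 59.3 and 59.5 CPM, so WT 4 was level with the knockouts.

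**Figure D1:**
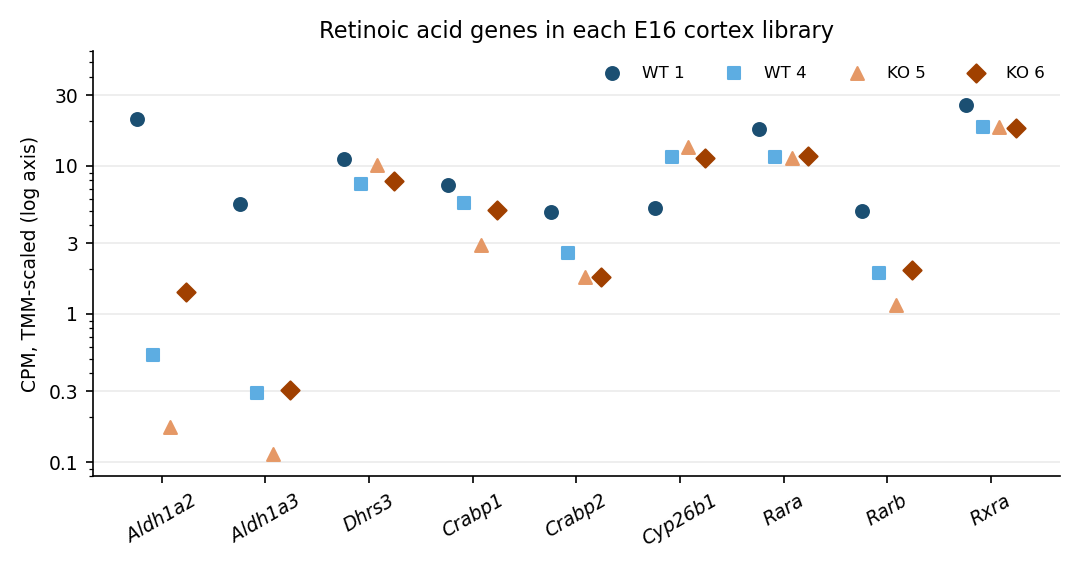
Level of each of the 9 retinoic acid genes in CPM scaled by TMM factors, on a log axis, with 1 point per library (WT 1, WT 4, KO 5, KO 6). WT 1 is the highest point for 8 genes and the lowest for Cyp26b1, and the spread is widest for Aldh1a2, from 0.171 to 20.8 CPM.

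Between the genotypes, edgeR's quasi-likelihood test (adjusted p under 0.05, Benjamini-Hochberg over 16371 genes) called 0 of the 8 retinoic acid genes tested, where it called 0.0122% of all genes. Each of the 8 had an adjusted p of 0.9999. Cd93 itself was not called in this fit (log2 fold change -2.32, SE 0.25, edgeR adjusted p 0.211), so a gene not called may still differ. An unadjusted p under 0.05 was given to 2 of the 8, Aldh1a2 and Crabp2, against 1.94% of all genes. Aldh1a3 was not tested, because it did not pass the filter on low counts. DESeq2 and limma-voom called 0 of the 8, where they called 0.0489% and 0.0122% of all genes, and edgeR without the filter called 0 of 9 (0.00981% of all genes). It called 1 with the deposited table as a block (0.177%) and 4 without WT 4 (1.82%), of which Aldh1a3 passed the filter there only through WT 1. It called 0 without WT 1 (0.259%), without KO 5 (0.0291%) and without KO 6 (0.0466%).

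Log2 fold changes, KO over WT throughout, were below 0 for 7 of the 8 and above 0 for 1, with a median of -0.53, where 51.0% of all genes were below 0 and their median was -0.003. Without WT 1 the 8 genes split into 5 below and 3 above 0, with a median of -0.01. Within the deposited tables, KO 6 over WT 1 and KO 5 over WT 4, the ratio was below 1 in both for 6 of the 9, against 22.9% of all tested genes. Both KO libraries lay below both WT libraries for 2 of the 9, Crabp1 and Crabp2, and above them for 0, where 11.9% and 11.5% of all tested genes did so.

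Aldh1a2, the gene of the retinaldehyde dehydrogenase of the meninges, showed the widest range of the set. It lies on chromosome 9 (71215789 to 71296243, plus strand, ENSMUSG00000013584), and its counts were 370, 9, 3 and 23. The genotypes overlapped, with KO 6 above WT 4. WT 1 exceeded WT 4 by 40.1-fold at equal depth (95% exact counting interval 20.9 to 88.4). The mean level was 10.7 ± 14.3 CPM in WT, against a KO mean of 0.794 ± 0.881 CPM (SD, n = 2 each). The edgeR log2 fold change, -3.76 with an SE of 1.53, did not pass (adjusted p 0.9999). Without WT 1 it became 0.56 (SE 0.94, edgeR adjusted p 0.9999), so the sign turned. KO 5 over WT 4 had a ratio of 0.326 with an exact counting interval of 0.0567 to 1.31, which holds equality, while KO 6 was above WT 4. Without WT 4 it was -4.72 (edgeR adjusted p 8.00e-09); WT 1 is then the only wild-type library and is assumed to vary like the knockouts. Fitted with the deposited table as a block, it was -3.52 and passed (edgeR adjusted p 0.0108).

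Aldh1a3, the gene of the retinaldehyde dehydrogenase of the lateral ganglionic eminence, was close to the limit of detection outside WT 1. It lies on chromosome 7 (66390890 to 66427517, minus strand, ENSMUSG00000015134), with counts of 98, 5, 2 and 5. The other 3 libraries were thus near the floor of 3 counts, which is 0.171 to 0.184 CPM, and the genotypes overlapped. WT 1 was 19.1-fold above WT 4 (95% exact counting interval 7.92 to 60.2). The ratio of KO 6 to WT 1 was 0.055 (interval 0.0175 to 0.133), while that of KO 5 to WT 4 was 0.391 with an interval of 0.0372 to 2.39, which holds equality. Fitted without a filter, its log2 fold change was -3.75 with an SE of 1.33 (edgeR adjusted p 0.9995). Without WT 4 this was -4.67, where the gene passed the filter only through WT 1, then the whole wild-type arm. Without WT 1 the counts were too low for a test.

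Dhrs3 encodes a short-chain reductase that returns retinaldehyde to retinol and so opposes synthesis. The gene lies on chromosome 4 (144892827 to 144928209, plus strand, ENSMUSG00000066026), and its counts were 198, 129, 179 and 129. Each genotype held 1 higher and 1 lower library, and the genotypes overlapped. Mean levels were 9.36 ± 2.52 CPM for WT, 9.09 ± 1.60 CPM for KO (SD, n = 2 each). The log2 fold change was -0.04 (SE 0.27), and its sign turned without WT 1 (0.26) and without KO 6 (0.13). Within the tables the log2 ratios had opposite signs, -0.48 for KO 6 over WT 1 and 0.43 for KO 5 over WT 4.

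The 2 carrier genes were the 2 of the 9 for which the genotypes did not overlap, both with KO below WT. Among all tested genes, 11.9% lay that way and 11.5% the other way. Crabp1 (chromosome 9, 54764748 to 54773110, plus strand, ENSMUSG00000032291) encodes the binding protein linked to handing retinoic acid to degrading enzymes. Its counts were 133, 95, 51 and 82. KO 5 was the lowest, and the step from WT 4 to KO 6 was small, 5.58 against 5.05 CPM. Crabp1 averaged 6.53 ± 1.35 CPM in WT, and 3.98 ± 1.52 CPM was its KO mean (SD, n = 2 each). In edgeR its log2 fold change was -0.72, with an SE of 0.35, and did not pass (adjusted p 0.9999). The log2 ratio was -0.56 for KO 6 over WT 1 and -0.91 for KO 5 over WT 4, so Crabp1 alone of the 9 had its larger drop in the table that does not hold WT 1. Leaving out KO 5 moved the fold change to -0.37, KO 6 to -1.16, WT 1 to -0.49 and WT 4 to -0.91.

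Crabp2 (chromosome 3, 87948666 to 87953376, plus strand, ENSMUSG00000004885) encodes the binding protein that delivers retinoic acid to the RAR receptors. Its counts were 87, 44, 31 and 29. The KO libraries lay close together, at 1.77 and 1.79 CPM, while WT 1 was 1.93-fold above WT 4 (95% exact counting interval 1.33 to 2.84). Crabp2 averaged 3.74 ± 1.63 CPM in WT, and 1.78 ± 0.0126 CPM was its KO mean (SD, n = 2 each). The log2 fold change of -1.07 (SE 0.40) had an unadjusted p of 0.0326 and an adjusted p of 0.9999 in edgeR. It was -0.54 without WT 1 (SE 0.46, edgeR adjusted p 0.9999). Against WT 4, KO 5 had a ratio of 0.689 with an exact counting interval of 0.42 to 1.12, which holds equality.

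Cyp26b1, the gene of a CYP26 enzyme that clears retinoic acid, was the member lowest in WT 1. The gene lies on chromosome 6 (84571414 to 84593908, minus strand, ENSMUSG00000063415), and its counts were 93, 195, 234 and 184. WT 4 lay between the KO libraries in CPM, so the genotypes overlapped. WT 1 had 0.465 of the WT 4 level (95% exact counting interval 0.36 to 0.599). The mean was 8.34 ± 4.40 CPM among WT, 12.4 ± 1.43 CPM among KO (SD, n = 2 each). Its log2 fold change, 0.57 with an SE of 0.36, did not pass in edgeR (adjusted p 0.9999). It was 0.11 without WT 1, and 1.24 without WT 4, where it passed (edgeR adjusted p 0.0161). The library with the most Aldh1a2 and Aldh1a3 was thus the one with the least Cyp26b1. This rests on 1 library, and a link between these genes was not tested. WT 1 was also the lowest library for 12 of the 14 cortical markers and for 26.0% of all tested genes.

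Of the receptor genes, Rarb had the widest range. It encodes retinoic acid receptor beta, lies on chromosome 14 (16430839 to 16819156, minus strand, ENSMUSG00000017491) and holds the repeat printed above. Its counts were 88, 32, 20 and 32. WT 4 and KO 6 held equal counts, and WT 1 was 2.68-fold above WT 4 (95% exact counting interval 1.77 to 4.16). Rarb averaged 3.42 ± 2.17 CPM in WT, and 1.56 ± 0.587 CPM was its KO mean (SD, n = 2 each). For Rarb the log2 fold change was -1.14, with an SE of 0.54, and did not pass in edgeR (adjusted p 0.9999). It was -0.28 without WT 1, and -1.67 without WT 4, where it passed (edgeR adjusted p 0.0313). Rarb overlaps Top2b, the gene of a DNA topoisomerase on the opposite strand, at its 3′ end, and 36.3% of the 25-base words of Rarb transcripts also occur, on either strand, in transcripts of other genes, most of them of Top2b. Top2b had 428 to 464 CPM and a log2 fold change of -0.01 (SE 0.11). Whether counting used strand is not given in the sources used here, so reads of the 2 genes cannot be told apart in that stretch. Counts are per gene and do not separate the Rarb transcripts.

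Rara and Rxra encode retinoic acid receptor alpha and its usual partner, retinoid X receptor alpha, both widely expressed. Rara (chromosome 11, 98927818 to 98974942, plus strand, ENSMUSG00000037992) had 316, 197, 198 and 190 counts. Rxra (chromosome 2, 27676440 to 27762957, plus strand, ENSMUSG00000015846) had 461, 311, 321 and 292. For each receptor WT 4 and the knockouts were nearly level, within 1.04-fold for Rara and 1.02-fold for Rxra, and WT 1 was above the mean of these 3 by 1.54-fold and 1.43-fold. The genotypes overlapped for both. The log2 fold change was -0.35 for Rara (SE 0.24) and -0.28 for Rxra (SE 0.19), with adjusted p values of 0.9999 in edgeR. Without WT 1 both were at -0.01, with SEs of 0.25 for Rara and 0.22 for Rxra.

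**Figure D2:**
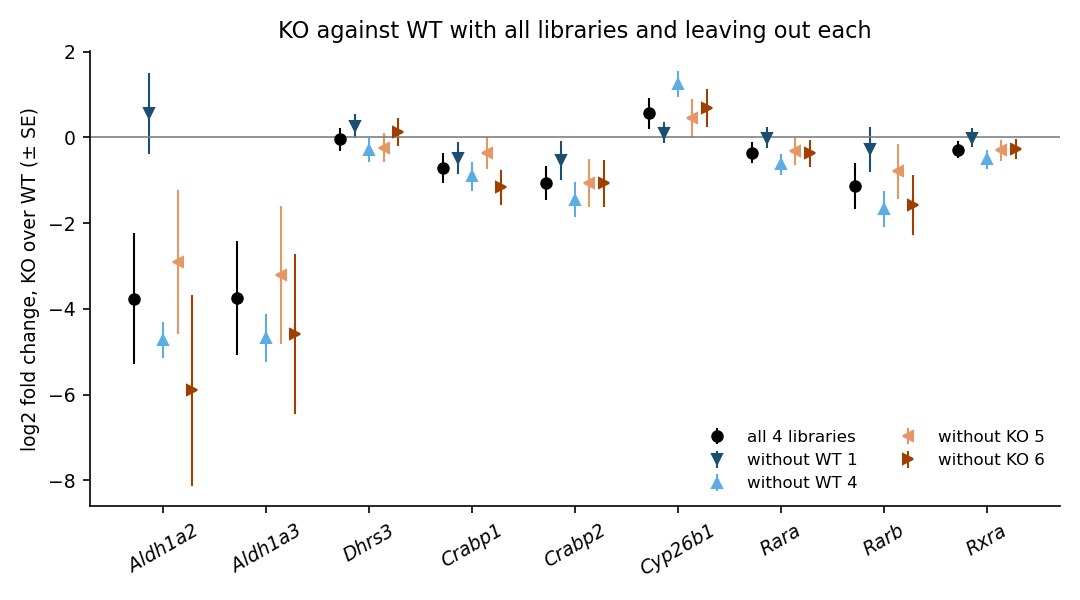
Log2 fold change of each gene, KO over WT, with its SE, from edgeR with all 4 libraries (for Aldh1a3, without a filter on low counts) and leaving out each library in turn. Aldh1a2 moves from -3.76 with all libraries to 0.56 without WT 1, Rara and Rxra move to -0.01, and Aldh1a3 has no point without WT 1 because its counts were then too low for a test.

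The genes could be ordered by level per kilobase of exon (RPKM: CPM per kilobase of the merged GENCODE exons). In the KO, mean RPKM ± SD over 2 libraries was highest for Crabp1, at 4.97 ± 1.89. Rxra followed at 3.33 ± 0.0422, Dhrs3 at 3.10 ± 0.548, Rara at 2.64 ± 0.0661, Cyp26b1 at 2.31 ± 0.266 and Crabp2 at 1.35 ± 0.00954. Lowest were Aldh1a2 at 0.351 ± 0.389, Rarb at 0.296 ± 0.112 and Aldh1a3 at 0.0457 ± 0.0297. The exon length used for Rarb includes the stretch that overlaps Top2b, so the level and place of Rarb are less certain. Neighbours from Crabp1 to Rara differed by less than the larger SD of the pair, as did Aldh1a2 and Rarb. Among WT the place of Aldh1a2 depended on the library. Its RPKM was 9.20 in WT 1, next to Crabp1 at 9.33, and 0.234 in WT 4, where only Aldh1a3 was lower at 0.0636. In WT 4 the RPKM of Crabp1, Rxra, Rara, Dhrs3, Cyp26b1, Crabp2 and Rarb was 6.96, 3.34, 2.65, 2.59, 2.14, 1.96 and 0.357. This was close to the KO order.

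Genes whose profile over the 4 libraries was most like a member's were sought among 15276 tested genes of sufficient level, by Euclidean distance between mean-centred log2 CPM values. This was done for the 6 members that spanned at least 1 log2 unit, and with 4 libraries it is a description only. For Aldh1a2 the nearest were Cldn11 (distance 0.36, counts 456, 11, 6 and 35), Lyve1, Gjb6, Slc6a13 and Col6a3, the last at 1.64. For Aldh1a3 they were Col3a1, Col6a1, Tbx18, Dcn and Lyve1, at 0.505 to 0.604. Col3a1, Tbx18, Dcn and Slc6a13 are also on the meningeal marker list, and Lyve1 is on that of microglia and macrophages. Among those nearest to Rarb were B130024G19Rik, Bst2, Cpq and Tgfbr3, at 0.0865 to 0.197. Crabp1 was nearest to Ano3, Gm42692, Fam46a, Dmrtc1a and Gm2824, at 0.0874 to 0.157, and Crabp2 to Pik3cg, Pou3f4, Rps15a-ps7, Adhfe1 and Dpyd, at 0.0750 to 0.132. Cyp26b1, with its low WT 1, was nearest to Zfp960, Thrsp, AC160562.1, Pcdhgb4 and Gm26813, at 0.111 to 0.190.

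The wider retinoid pathway was followed through 105 other genes in 6 lists, of which 77 are in both tables and 68 were tested. With all 4 libraries edgeR called 0 of the 68, against 0.0122% of all genes. The log2 fold change was below 0 for 42 and above 0 for 26, with a median of -0.06, and below 0 for 36 and above for 32 without WT 1, with a median of -0.02. Fitted with the deposited table as a block, 1 of the 68 passed, Zfp503 (edgeR adjusted p 0.0106), where 0.177% of all genes passed. That gene encodes the zinc-finger repressor of the series title.

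Of 11 tested genes of retinol uptake and storage, 5 were below and 6 above 0, with a median of 0.04. Without WT 1 these 11 had a median of 0.22, with 2 below and 9 above 0. The median was -0.24 without WT 4, over 12 tested genes, and -0.26 without KO 6. Stra6, the gene of the retinol transporter of the cell membrane, had counts of 234, 65, 72 and 73, high in WT 1 alone. Its log2 fold change was -0.98 (SE 0.54), and 0.17 without WT 1. Lpl, the gene of lipoprotein lipase, was at 0.26 (SE 0.16).

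The retinol and retinaldehyde dehydrogenases and reductases were balanced, with 5 below and 5 above 0 of 10 tested and a median of -0.01. Dhrs7, the gene of a short-chain reductase, was at -0.92 (SE 0.34). The retinol dehydrogenase genes Rdh12 and Rdh13 were at -1.23 (SE 0.51) and 0.23 (SE 0.13). Rdh10, the gene of the main retinol dehydrogenase of the embryo, had counts of 259, 172, 181 and 198 and was at -0.13 (SE 0.24). It was singled out after its values were seen. Of the breakdown and carrier list 3 were below and 1 above 0 of 4 tested, with a median of -0.18 that was 0.11 without WT 1. Pltp, the gene of a phospholipid transfer protein, was at -0.96 (SE 0.49). Fabp5, the gene of a fatty acid-binding protein that also binds retinoic acid, was at -0.24 (SE 0.25), and Fabp7, its radial glial relative, at -0.13 (SE 0.23).

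Other nuclear receptors of the pathway had 10 below and 5 above 0 of 15 tested, with a median of -0.11. Without KO 6 they had 7 below and 8 above, with a median of 0.01. Rxrg, the gene of the RXR receptor of the striatum and also on the ganglionic eminence marker list, had counts of 502, 241, 117 and 241 and was at -0.98 (SE 0.44). As for Rarb, WT 4 and KO 6 held equal counts and KO 5 was lowest. Thrb, a thyroid hormone receptor gene, was at -0.73 (SE 0.34) and Nr2c2, an orphan receptor gene, at 0.18 (SE 0.11). The 16 corepressors and coactivators, which such receptors recruit, split into 8 below and 8 above 0 with a median of 0.0003. The 3 of smallest p among them were Kat2b at -0.22 (SE 0.13), Asxl1 at -0.12 (SE 0.10) and Ncoa3 at -0.14 (SE 0.13).

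Genes known from other work to respond to retinoic acid had 14 below and 3 above 0 of 17 tested, with a median of -0.30, and 13 below and 4 above without WT 1, with a median of -0.14. Zfp503 had counts of 517, 122, 43 and 77 and was at -2.34 (SE 0.66). Meis1, a homeobox gene, had counts of 271, 144, 84 and 97 and was at -1.14 (SE 0.33). Tshz1, a zinc-finger gene, had counts of 740, 585, 478 and 459 and was at -0.45 (SE 0.14). In these 3 genes, which were named by their p-values, both KO libraries lay below both WT libraries. So they did in 8 of the 17 on the list, against 11.9% of all tested genes. The same held for 12 of 25 markers of ganglionic eminence and striatum and 6 of 15 of meninges and fibroblasts. In each of these lists 0 genes lay the other way, and Meis2 is on both the response and ganglionic eminence lists. None of the 3 named genes passed in edgeR with all 4 libraries (adjusted p 0.9999 each).

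**Figure D3:**
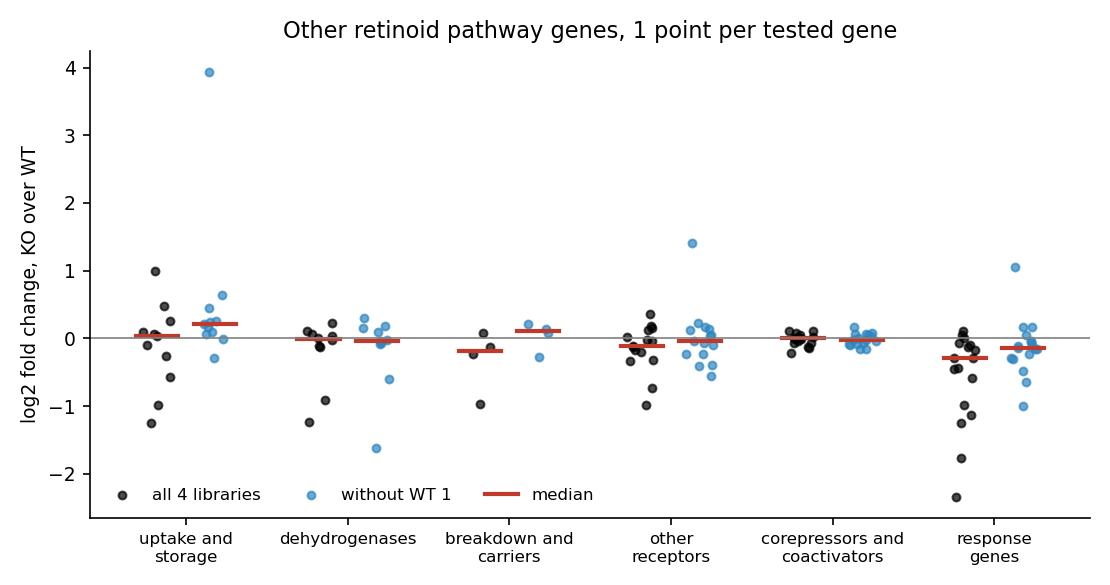
Log2 fold change, KO over WT, of the tested genes in 6 lists of the wider retinoid pathway, with all 4 libraries and without WT 1, each list with a line at its median. Medians lie between -0.30 and 0.04 with all libraries and between -0.14 and 0.22 without WT 1.

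Markers of some other cell types moved with the retinoic acid genes and those of others did not, and their part in the result was not tested. Of the markers of meninges and fibroblasts 14 were below and 1 above 0 of 15 tested (median -2.01), and 8 below and 7 above without WT 1 (median -0.03). Those of ganglionic eminence and striatum were 23 below and 2 above 0 of 25, with a median of -0.88 for all libraries and, at the same split, -0.25 without WT 1. Endothelial markers summed to 308 CPM in WT 1 against 183 to 196 in the other 3 libraries, pericyte markers to 305 against 182 to 209, and microglia and macrophage markers to 113 against 46.9 to 52.3. Choroid plexus markers summed to 19.7, 6.64, 7.99 and 21.1 CPM, blood markers to 1065, 1009, 766 and 1468, and markers of olfactory bulb and amygdala to 319, 330, 371 and 298. Astrocyte markers summed to 595 to 660 CPM, but single genes went both ways in WT 1. WT 1 was the highest library for 4 of the 9 tested and the lowest for 3. Gja1 had 66.4, 18.4, 17.9 and 21.0 CPM, and Gfap had 1.13, 3.11, 4.28 and 5.49 CPM. None of these markers that are in both tables was at 0 in any library. For every 1000 CPM of meningeal and fibroblast markers, Aldh1a2 had 29.1, 2.76, 1.16 and 7.29 CPM, a wider range than that of the summed markers. Crabp2 had 6.84 in WT 1 and 9.19 to 13.5 in the other 3 on that scale, so WT 1 was lowest. Per 1000 CPM of ganglionic eminence and striatum markers, Aldh1a3 had 3.25, 0.269, 0.130 and 0.293, and Rarb had 2.91, 1.72, 1.30 and 1.88. Per 1000 CPM of meningeal and fibroblast markers Rarb had 6.91, 9.80, 7.74 and 10.1, with WT 1 lowest. Aldh1a3 was not scaled to that list, though Col3a1, Tbx18 and Dcn of the list were among its nearest profiles.

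**Figure D4:**
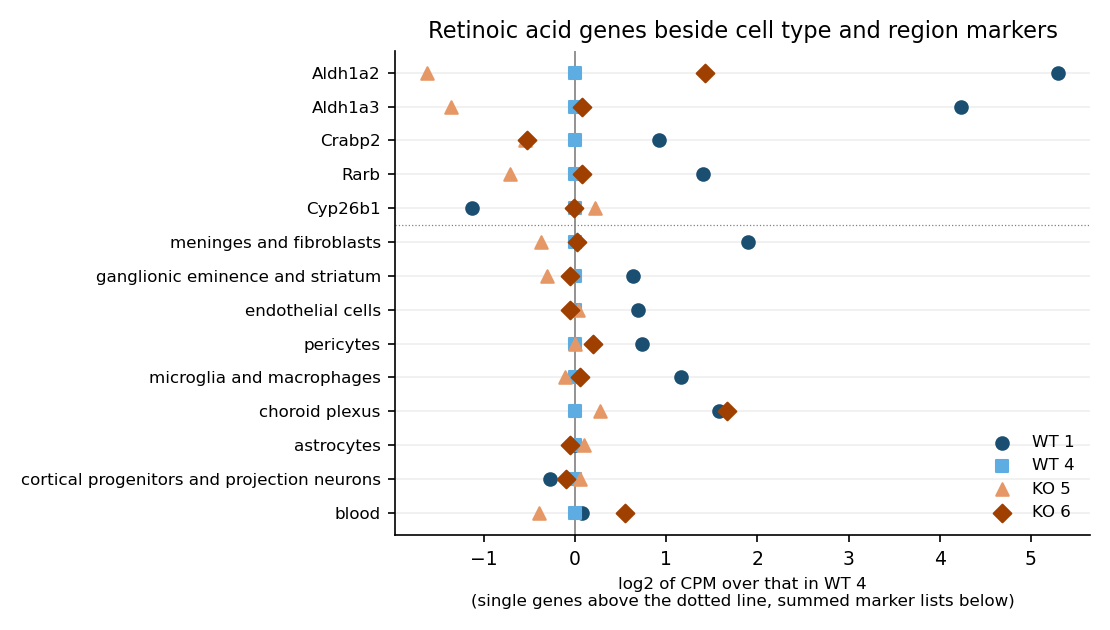
Log2 of the CPM in each library over that in WT 4, for 5 of the retinoic acid genes and, past the dotted line, for the summed CPM of marker lists. WT 1 lies to the right for Aldh1a2, Aldh1a3, Crabp2, Rarb and for the markers of meninges and of ganglionic eminence, and to the left for Cyp26b1 and the cortical markers.

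The authors' own comparisons set 1 KO library against 1 WT library. In the authors' deposited table of KO 6 against WT 1, 5 of the 9 genes were marked as significant, against 4.67% of all genes listed there. The log2 fold change in the authors' deposited table was -3.90 for Aldh1a2, -4.18 for Aldh1a3, -1.48 for Crabp2, 1.09 for Cyp26b1 and -1.35 for Rarb. In the authors' deposited table of KO 5 against WT 4, 0 of the 9 were marked, against 2.31% of its genes. Dhrs3 had an adjusted p under 0.05 in both of the authors' deposited tables, 0.00817 and 0.0499, with log2 fold changes of opposite sign, -0.51 and 0.44. Crabp1 also had one under 0.05 in both of the authors' deposited tables, 0.0145 and 0.00218, with log2 fold changes of -0.59 and -0.93. The authors marked neither Dhrs3 nor Crabp1 as significant in either comparison. For KO 6 against WT 1 the adjusted p of Crabp1 was the largest of the 9 genes, so all 9 were under 0.05 there. The share of all genes under 0.05 in both comparisons was not computed.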

How the data were processed

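The authors deposited 2 tables of whole counts per Ensembl gene, each with 1 KO and 1 WT library. Bowtie2 2.2.3, TopHat2 2.0.12, HTSeq 0.6.0 and mm9 appear, without roles, in the submitters' processing notes, yet 91.6% of gene positions are those of GENCODE vM21 on GRCm38. Positions are printed as deposited, and the strand setting is not given in the sources used here. Per the file headers and values, the deposited CPM are counts scaled to the library total, the deposited fold change is their ratio, and a further deposited column holds the log2 of that ratio. The deposited p-values compare 1 library with 1 library, by a tool that the headers do not name. Each table lists genes with at least 2 summed counts.

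Counts of the 20385 shared genes were fitted in R 4.3.3 with edgeR 4.0.16 (filterByExpr, TMM factors, quasi-likelihood test, two-sided, Benjamini-Hochberg adjustment over all tested genes), and the code was tested on simulated data. Alternatives were DESeq2 1.42.0, limma-voom (limma 3.58.1), RLE normalization, no filter, the deposited table as a block and leaving out each library. Log2 CPM used a prior count of 2. Counting intervals (Clopper-Pearson) and floors cover counting error alone, as no molecular identifiers were stated. Members, gene lists and rules were chosen with earlier results of these data known. Named beside the 9 members are, per pathway list, genes called with all libraries or with the table as a block and otherwise up to 3 of smallest p, and for members spanning at least 1 log2 unit the 5 nearest profiles. Some genes that this rule names are not reported here.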

Additional observations from a re-analysis of the deposited data

How the results depend on the processing

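The count of retinoic acid genes called by edgeR, 0 with all libraries, was also 0 with RLE normalization, without a filter, with DESeq2 and with limma-voom. It was 1 with the deposited table as a block, and 0 to 4 when each library was left out, the 4 being without WT 4. Over all tested genes the count was 2, against 8 with DESeq2, 29 with the table as a block, and 5 to 312 when each library was left out (44 without WT 1, 312 without WT 4, 5 without KO 5, 8 without KO 6). The sign turned for Aldh1a2, at 0.56 without WT 1 (leaving out each library gave -5.90 to 0.56), and for Dhrs3, at 0.26 without WT 1 and 0.13 without KO 6 (-0.29 to 0.26). These fits hold fewer samples, and the cause was not tested. Crabp1, Crabp2, Cyp26b1, Rara, Rarb and Rxra kept their sign under all 9 alternatives. The labels do not pair the libraries, as the genotypes share no replicate number. The block used here is the deposited table, and no label says that the libraries of a table are a pair. Depth limits Aldh1a2 and Aldh1a3 most, with 2 to 23 counts in each library other than WT 1.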

Other observations

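Some retinoid genes lay outside the comparison because they are listed in 1 table or fell under the filter on low counts. Cyp26a1, whose promoter holds the repeat printed above, had 3 counts in WT 4 and 3 in KO 5. Cyp26c1, the gene of a related enzyme, had 1 in WT 1 and 3 in KO 6. At these counts no difference was detectable. Rbp2, the gene of a retinol-binding protein known from the intestine, had 17 counts in WT 4 and 0 in KO 5, and a count of 0 allows up to 0.171 CPM there. For Adh1, the gene of an alcohol dehydrogenase that can oxidise retinol, counts in the order WT 1, WT 4, KO 5, KO 6 were 3, 25, 0 and 1. Aldh1a1, the gene of the remaining retinaldehyde dehydrogenase, had counts of 3, 1, 6 and 13 in that order. These 5 genes were chosen after their values were seen.

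Without WT 4, which leaves WT 1 as the only WT library, the other pathway genes that edgeR called included Zfp503, Pltp, Tgm2, Stra6, Meis1 and Rxrg, all lower in KO. Over all genes 1.82% were called in that fit. Without WT 1, edgeR called none of these but did call Adh1, at a log2 fold change of -5.31. WT 4 is then the only WT library. Adh1 passed the filter in that fit only through WT 4, with 25 counts against 0 in KO 5 and 1 in KO 6. Tgm2, the gene of a transglutaminase known as a retinoic acid response gene, had counts of 97, 7, 13 and 16.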
